A study of Mus musculus with 6 samples.

Results

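The 8 genes described here, Pik3ca, Pik3r1, Pdpk1, Akt1, Akt2, Mtor, Rptor and Rictor, encode kinases and kinase subunits of the PI3K, Akt and mTOR pathway, which acts upstream of GSK3β. They were taken by gene name from a table of 47729 genes and 115220 transcripts, in which they account for 62 transcripts. RNAseq of ribosome-associated RNA covered 6 libraries of mPFC D2 neurons from adult male C57BL/6 mice aged 2.5 to 3 months, 3 labelled Ctrl and 3 labelled Gsk3sKO, and the mPFC was taken 3 weeks after virus injection. All mice carried D2Cre, a bacterial artificial chromosome transgene that drives Cre from the D2 receptor gene, together with the Cre-dependent LSL-Flag-Cas9 and RiboTag alleles, so the control cells also expressed Cas9 and the tagged Rpl22 ribosomal subunit. Ctrl mice received AAV GFP and Gsk3sKO mice received AAV Gsk3sgRNA/GFP, which adds the Gsk3b sgRNA. The control virus is described without a guide. The labels do not say whether a library came from 1 mouse or a pool, and the p-values therefore weigh differences against a spread between libraries that may be technical.

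PI3K is a lipid kinase that is recruited to activated receptors and makes the membrane lipid PIP3. PIP3 brings PDK1 and Akt to the membrane, where PDK1 and mTOR complex 2 phosphorylate and activate Akt. Active Akt phosphorylates an amino-terminal serine of GSK3α and GSK3β and thereby inhibits them, and it also relieves the TSC brake on mTOR complex 1, which promotes protein synthesis. In neurons D2 receptor signaling through beta-arrestin 2 is known to reduce Akt activity. RNA bound to ribosomes was measured here, and the phosphorylation of these kinases was not.

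All 8 genes were measured above 0 in every library, and none of them passed the test between Ctrl and Gsk3sKO. A gene total is the summed FPKM of the transcripts listed for a gene, and FPKM scales the fragments of a transcript to its length and to the library total. Over the 6 libraries the mean gene totals ran from 6.54 FPKM for Pik3ca to 37.8 FPKM for Pik3r1. In limma on log2(FPKM + 1), 0 of the 8 gene totals had an unadjusted p under 0.05, against 6.56% of the 12874 gene totals tested, and 0 had an adjusted p under 0.05, against 0.0466%. A linear model without moderated variances also called 0 at an unadjusted p under 0.05. The 3 Ctrl and 3 Gsk3sKO values overlapped for each of the 8 genes, and over all tested gene totals 12% (1545 of 12874) did not overlap. The log2 fold changes lay between -0.30 for Pdpk1 and 0.21 for Rptor, with 5 above and 3 below 0. Their median absolute value was 0.11, beside 0.19 over all tested gene totals. The signed median was 0.06 and that of all tested gene totals -0.06. The 8 genes also had a higher median level (12.7 against 8.61 FPKM) and a smaller median standard error (0.205 against 0.251) than all tested gene totals. The absolute medians therefore do not compare genes measured with equal precision. Fewer cells of a type and less RNA per cell cannot be told apart in these libraries.

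**Figure D1:**
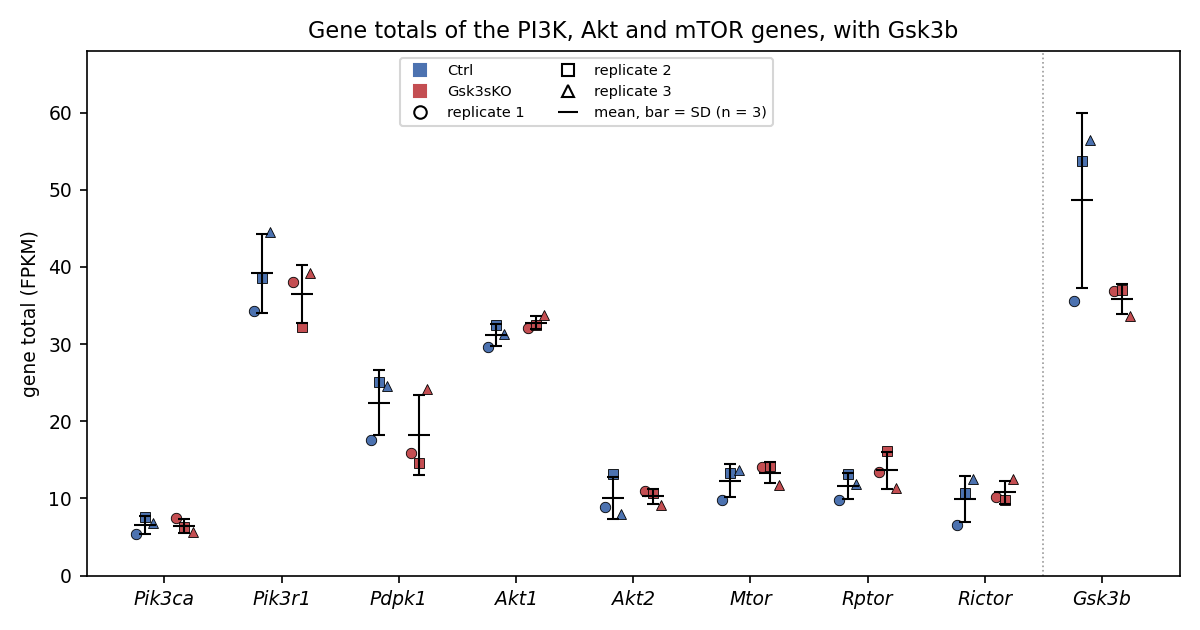
Gene total in FPKM (y axis) of the 8 genes and, right of the dotted line, of Gsk3b, in each of the 3 Ctrl (blue) and 3 Gsk3sKO (red) libraries, with the mean as a dash and the SD as a bar. The Ctrl and Gsk3sKO points overlap for all 8 genes, and those of Gsk3b overlap as well.

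The targeted gene was compared between the labels, and a few facts of the libraries bear on the values. The main Gsk3b transcript, ENSMUST00000023507, was between 33.5 and 36.2 FPKM in Ctrl and between 21.2 and 24.8 FPKM in Gsk3sKO, without overlap (log2 fold change -0.61 with a standard error of 0.14, adjusted p = 0.619 in limma). Over all tested transcripts 11.2% did not overlap. The other tested Gsk3b transcript, ENSMUST00000114750, was at 1.85, 18.7 and 20.0 FPKM in Ctrl and 11.9, 15.4 and 12.5 FPKM in Gsk3sKO. Its log2 fold change had the other sign, 0.42 with a standard error of 0.78 (limma adjusted p = 0.949). The Gsk3b gene total overlapped between the groups, since Ctrl replicate 1, at 35.6 FPKM, lay far below the other Ctrl libraries at 53.8 and 56.5 FPKM. The spacing of the low FPKM values put the reads behind each library at about 23500000 to 45100000. This is approximate. The depth was chosen to bring many low values near a whole number of reads, and 20.8% to 33.8% of them then lay within 0.03 reads of one. An even spread would give 6% at a depth fixed beforehand, so 6% is too low a reference after that choice. Most low values did not lie that near a whole number. At that depth a gene total of the 8 genes rested on between about 789 reads, for Akt2, and about 9659 reads, for Pik3r1. Drd2, the gene of the D2 receptor, was at 1.58, 6.02 and 14.1 FPKM in Ctrl and between 5.96 and 8.32 FPKM in Gsk3sKO. Ctrl replicate 1 had the lowest Drd2 value, the lowest summed level of 5 markers of dopaminoceptive neurons (124 FPKM, against 146 to 366 FPKM elsewhere) and the lowest gene total of 5 of the 8 genes, Pik3ca, Akt1, Mtor, Rptor and Rictor. Over all tested gene totals Ctrl replicate 1 was lowest for 24.4% of genes and Gsk3sKO replicate 3 for 28.4%. The summed markers of astrocytes (49.8 to 70.9 FPKM), oligodendrocytes (108 to 169 FPKM), microglia (9.89 to 20.2 FPKM) and endothelial cells (10.7 to 38.4 FPKM) overlapped between the groups, as did those of neurons (1898 to 2148 FPKM), excitatory neurons (824 to 1025 FPKM) and inhibitory neurons (935 to 1318 FPKM). Of the 41 markers, 40 were tested and 2, a share of 5% beside 6.56% of all tested gene totals, had an unadjusted p under 0.05 in limma. Both are among the 5 markers of oligodendrocytes. Mog averaged 3.23 ± 0.687 FPKM in Ctrl libraries and 0.602 ± 1.04 FPKM in Gsk3sKO libraries (SD, n = 3 each), where it was at 0 in 2 libraries. The Mag averages were 5.80 and 3.21 FPKM. Adora2a, a marker of dopaminoceptive neurons, was at 0 in 1 library, and every other marker was above 0 in all libraries. Their part in the values of the 8 genes was not tested.

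Pik3ca encodes the p110α catalytic subunit of PI3K. Its gene total was 5.34, 7.59 and 6.87 FPKM in Ctrl and 7.46, 6.29 and 5.69 FPKM in Gsk3sKO. The Ctrl range enclosed all Gsk3sKO values, and means of 6.60 ± 1.15 FPKM (SD, n = 3) and 6.48 ± 0.900 FPKM (SD, n = 3) gave a log2 fold change of -0.02 (standard error, SE, 0.21, 95% interval -0.51 to 0.47, limma adjusted p = 0.993). A 2-sided exact permutation of the 6 libraries gave p = 0.9, where the smallest p it allows is 0.1. Pik3ca lies on the plus strand of chromosome 3 of GRCm38, where its transcript with the highest mean, Pik3ca-201 (ENSMUST00000029201), spans 32436151 to 32468486 in 20 exons.

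A pair of Pik3ca transcripts shared nearly all of this signal. For Pik3ca-201 the values were 5.29, 5.73 and 6.87 FPKM in Ctrl, and 0, 3.98 and 5.62 FPKM in Gsk3sKO. Pik3ca-203 (ENSMUST00000108243) had 0, 1.78 and 0 FPKM in Ctrl but 7.40, 2.21 and 0 FPKM in Gsk3sKO. In Gsk3sKO replicate 1 nearly all of the signal was thus assigned to Pik3ca-203, and in Gsk3sKO replicate 3 to Pik3ca-201. Neither passed the test, with log2 fold changes of -1.11 (SE 0.73, limma adjusted p = 0.88) and 1.09 (SE 0.89, limma adjusted p = 0.89). Without Gsk3sKO replicate 1 the value of Pik3ca-201 was -0.27 and that of Pik3ca-203 0.35. Both transcripts hold the same coding sequence of 3204 bases and 6538 of the 6689 bases of Pik3ca-203 lie in exons of Pik3ca-201, so the assignment changes the untranslated ends and leaves the encoded protein the same. Their sum was 5.29, 7.52 and 6.87 FPKM in Ctrl and 7.40, 6.19 and 5.62 FPKM in Gsk3sKO, and it made up at least 98.3% of the gene total in every library.

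Pik3r1 encodes regulatory subunits of PI3K, which hold the catalytic subunit and bind phosphorylated receptors and adaptors through SH2 domains. It had the highest gene total of the 8 genes, at 34.3, 38.6 and 44.6 FPKM in Ctrl and 38.1, 32.3 and 39.2 FPKM in Gsk3sKO. The groups overlapped, with a log2 fold change of -0.09 (SE 0.15, 95% interval -0.45 to 0.26, limma adjusted p = 0.932; 2-sided exact permutation p = 0.5). Pik3r1 lies on the minus strand of chromosome 13 and is annotated with separate start sites. Pik3r1-202 (ENSMUST00000055518, 101680563 to 101768217, 16 exons) starts upstream and encodes the long p85α form in 2172 coding bases. Pik3r1-201 (ENSMUST00000035532, 101683664 to 101692630, 10 exons) starts inside the gene and encodes a shorter form in 1362 coding bases. The 250 bases before each start, from the RefSeq promoters of GRCm38.p6, are shown because they separate the sources of the measured transcripts. Capitals mark CG dinucleotides, which read the same on both strands.
Pik3r1-202 start, chr13:101768218-101768467, minus strand: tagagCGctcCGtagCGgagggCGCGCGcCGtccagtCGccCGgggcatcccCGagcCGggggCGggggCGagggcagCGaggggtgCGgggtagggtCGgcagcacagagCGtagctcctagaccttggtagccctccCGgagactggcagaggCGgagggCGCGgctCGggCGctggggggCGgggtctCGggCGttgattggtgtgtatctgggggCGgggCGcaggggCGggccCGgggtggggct
Pik3r1-201 start, chr13:101692631-101692880, minus strand: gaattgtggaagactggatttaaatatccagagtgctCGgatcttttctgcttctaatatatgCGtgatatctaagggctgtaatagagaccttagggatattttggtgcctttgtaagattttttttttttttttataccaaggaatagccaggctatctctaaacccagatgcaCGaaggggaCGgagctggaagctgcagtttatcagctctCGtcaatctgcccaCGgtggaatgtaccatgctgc
The upstream window holds 30 CG dinucleotides, a number reached by 5.94% of 32851 RefSeq promoter windows of this length, and the internal window holds 6, reached by 50.4%.

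The coding sequences from these starts join into the same 1262 bases. Before that point Pik3r1-202 has 910 coding bases of its own and Pik3r1-201 has 100. The last 60 of these are given below in lower case, followed in capitals by the first 30 of the shared bases.
Pik3r1-202 coding: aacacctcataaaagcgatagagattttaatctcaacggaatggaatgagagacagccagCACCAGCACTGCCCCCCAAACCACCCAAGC
Pik3r1-201 coding: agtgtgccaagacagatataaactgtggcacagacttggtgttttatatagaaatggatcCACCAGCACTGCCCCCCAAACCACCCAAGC
The long form predominated in each library. Pik3r1-202 was at 21.1, 28.2 and 32.5 FPKM in Ctrl and 30.6, 24.9 and 27.3 FPKM in Gsk3sKO, a log2 fold change of 0.03 (SE 0.20, limma adjusted p = 0.988). Pik3r1-201 was at 4.56, 4.52 and 10.7 FPKM in Ctrl and 4.94, 6.43 and 6.68 FPKM in Gsk3sKO, a log2 fold change of -0.03 (SE 0.37, limma adjusted p = 0.994). Neither differed beyond the spread between libraries. As a share of the gene total, Pik3r1-202 made up 61.4%, 73.1% and 72.8% in Ctrl and 80.5%, 77.1% and 69.5% in Gsk3sKO (2-sided exact permutation p = 0.3). Of the summed FPKM of the 3 tested transcripts it made up 71.2% to 77.0% in Ctrl and 78.3% to 80.9% in Gsk3sKO, without overlap (2-sided exact permutation p = 0.1, the smallest it allows), so the split between the groups depended on which transcripts entered the sum. A short coding transcript of 547 bases, Pik3r1-204, was at 3.95, 3.92 and 0.701 FPKM in Ctrl and 2.31, 0.475 and 0 FPKM in Gsk3sKO, and it did not pass the test either (log2 fold change -1.03, SE 0.67, limma adjusted p = 0.88). With means of 2.86 FPKM in Ctrl and 0.928 FPKM in Gsk3sKO, Pik3r1-204 passed the filter of 1 FPKM only through Ctrl. It is 1 of the 3 tested transcripts and added more to their sum in Ctrl. The share of Pik3r1-202 without overlap is thus partly set by the filter and is no separate result.

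Pdpk1 encodes PDK1, the kinase that phosphorylates the activation loop of Akt. Its gene total was 17.5, 25.1 and 24.6 FPKM in Ctrl and 15.9, 14.6 and 24.2 FPKM in Gsk3sKO. Of the Gsk3sKO libraries, 2 lay below every Ctrl library and the third lay among them. Means of 22.4 ± 4.22 FPKM (SD, n = 3) and 18.2 ± 5.22 FPKM (SD, n = 3) gave the lowest log2 fold change of the 8 genes, -0.30 (SE 0.23, 95% interval -0.83 to 0.23, unadjusted limma p = 0.227, adjusted p = 0.857; 2-sided exact permutation p = 0.2). Without Gsk3sKO replicate 3 the value became -0.51, at an unadjusted limma p of 0.0393 and an adjusted p of 0.925, and over all alternatives the adjusted limma p lay between 0.798 and 0.976. Its leading transcript, Pdpk1-202 (ENSMUST00000102927, chromosome 17, minus strand, 24073680 to 24141595, 14 exons), made up at least 79.6% of the total in each library and was at 16.8, 20.0 and 23.8 FPKM in Ctrl and 14.8, 13.8 and 22.6 FPKM in Gsk3sKO. Its log2 fold change was -0.25 (SE 0.25, limma adjusted p = 0.895). Of the 11 Pdpk1 transcripts, 3 were listed at 0 in all libraries.

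Akt1 had the most even summed FPKM of the 8 genes. It encodes the widely expressed Akt kinase. The gene total was 29.7, 32.5 and 31.3 FPKM in Ctrl and 32.1, 32.5 and 33.7 FPKM in Gsk3sKO, a coefficient of variation of 4.27% over the 6 libraries, where the other 7 genes had 11.3% to 23.7%. This evenness holds for a sum over transcripts of unequal length. Gsk3sKO replicate 3, with the highest total, had about 1977 Akt1 reads at a depth of about 30000000. Ctrl replicate 3 had about 1946 at about 23500000. The log2 fold change of the gene total was 0.07 (SE 0.13, limma adjusted p = 0.939, 2-sided exact permutation p = 0.3). Its 95% interval, -0.22 to 0.36, corresponds to folds between 0.857 and 1.29 on the scale of FPKM + 1, the narrowest of the 8 genes.

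Within the Akt1 total the transcripts were less even. Akt1-201 (ENSMUST00000001780, chromosome 12, minus strand, 112653821 to 112674276, 14 exons, 1440 coding bases) was at 28.6, 25.6 and 30.7 FPKM in Ctrl and 28.8, 31.7 and 20.3 FPKM in Gsk3sKO, a log2 fold change of -0.09 (SE 0.21, limma adjusted p = 0.964). Akt1-208 (ENSMUST00000144550, 112658425 to 112674884), which is annotated with 606 coding bases and starts upstream of Akt1-201, was at 0, 0.0702 and 0 FPKM in Ctrl and 3.09, 0 and 13.0 FPKM in Gsk3sKO. It was therefore above 1 FPKM in 2 of the 3 Gsk3sKO libraries and in 0 of the Ctrl libraries, with a log2 fold change of 1.91 (SE 0.95, 95% interval -0.39 to 4.22, unadjusted limma p = 0.0889, adjusted p = 0.842; 2-sided exact permutation p = 0.4). With means of 0.0234 FPKM in Ctrl and 5.37 FPKM in Gsk3sKO, Akt1-208 passed the filter of 1 FPKM only through Gsk3sKO. Its contrast is therefore no support for a difference between the groups. Leaving out Gsk3sKO replicate 2 gave 2.89 with an unadjusted limma p of 0.00601, and leaving out Gsk3sKO replicate 3 gave 0.98. With a pseudocount of 0.1 in place of 1 the value was 3.75. Of its 862 bases, 699 lie in exons of Akt1-201, so its level depends on how shared reads were divided. The windows before the annotated starts of Akt1-208 and Akt1-201 are shown with CG in capitals. They lie outside the exons of Akt1, and the use of either start in these cells was not tested.
Akt1-208 start, chr12:112674885-112675134, minus strand: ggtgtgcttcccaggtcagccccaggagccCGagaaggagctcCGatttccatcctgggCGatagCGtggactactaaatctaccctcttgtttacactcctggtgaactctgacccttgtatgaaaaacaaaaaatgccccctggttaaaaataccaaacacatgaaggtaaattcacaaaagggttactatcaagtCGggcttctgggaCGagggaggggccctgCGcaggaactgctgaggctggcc
Akt1-201 start, chr12:112674277-112674526, minus strand: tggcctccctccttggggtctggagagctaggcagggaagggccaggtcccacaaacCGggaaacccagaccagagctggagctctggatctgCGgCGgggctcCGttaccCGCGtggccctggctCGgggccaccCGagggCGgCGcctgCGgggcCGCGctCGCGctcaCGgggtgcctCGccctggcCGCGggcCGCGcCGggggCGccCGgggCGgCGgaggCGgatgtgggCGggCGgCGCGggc
The Akt1-201 window holds 31 CG dinucleotides, reached by 5.19% of the RefSeq windows, and the Akt1-208 window holds 7, reached by 46.3%.

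Akt2 encodes the Akt kinase best known for insulin-stimulated glucose uptake. Its gene total was 8.95, 13.2 and 8.001 FPKM in Ctrl and 10.9, 10.7 and 9.15 FPKM in Gsk3sKO. All Gsk3sKO values lay within the Ctrl range, with a log2 fold change of 0.05 (SE 0.22, 95% interval -0.45 to 0.55, limma adjusted p = 0.972; 2-sided exact permutation p = 0.9). The FPKM moved between transcripts from library to library without following the groups. Akt2-205 (ENSMUST00000108344, chromosome 7, plus strand, 27591552 to 27640826) was at 6.48, 1.01 and 7.23 FPKM in Ctrl and 7.96, 5.13 and 0.775 FPKM in Gsk3sKO. Akt2-201 (ENSMUST00000051356, 27605858 to 27639453) was at 7.74 FPKM in Ctrl replicate 2, at 7.75 FPKM in Gsk3sKO replicate 3 and at 0 in the other 4 libraries. These and 2 more transcripts hold the same coding sequence of 1443 bases, and their sum was 6.48, 8.85 and 7.23 FPKM in Ctrl and 8.06, 5.13 and 8.58 FPKM in Gsk3sKO (2-sided exact permutation p = 0.9).

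The sequences of the Akt1 and Akt2 transcripts bear on how well their reads can be told apart. The longest identical run between Akt1-201 and Akt2-205 was 32 bases, and it is shown as the stretch where a read is least informative.
Akt1 and Akt2 shared run: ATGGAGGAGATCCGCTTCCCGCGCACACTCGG

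**Figure D2:**
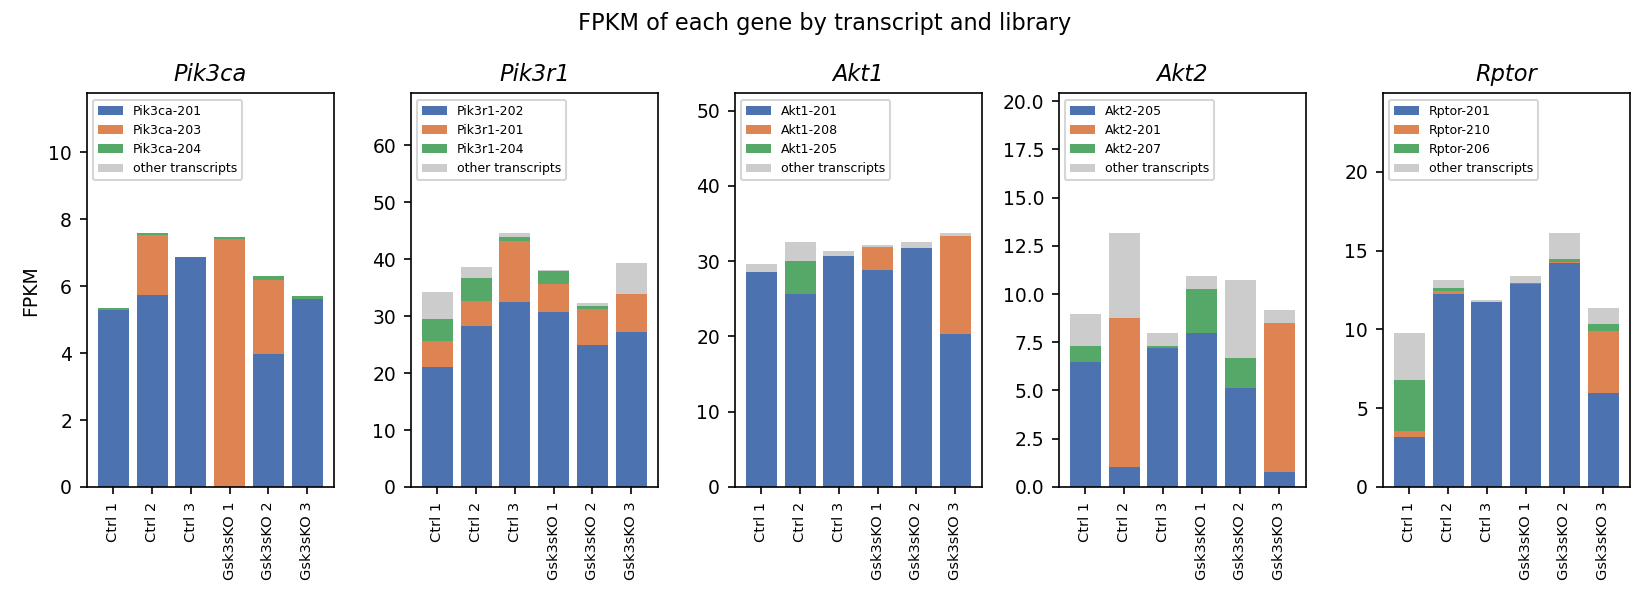
FPKM (y axis) of 5 genes in each library (x axis), divided among the 3 transcripts with the highest mean and, in grey, all others. The division differs between libraries of the same group, as in Akt2, where Ctrl replicate 2 and Gsk3sKO replicate 3 hold 7.74 and 7.75 FPKM of Akt2-201 and the other libraries none.

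Mtor encodes the kinase at the core of both mTOR complexes. Its gene total was 9.81, 13.3 and 13.7 FPKM in Ctrl and 14.1, 14.2 and 11.8 FPKM in Gsk3sKO. The log2 fold change was 0.12 (SE 0.19, 95% interval -0.31 to 0.55, limma adjusted p = 0.932; 2-sided exact permutation p = 0.5). Mtor-202 (ENSMUST00000103221, chromosome 4, plus strand, 148448611 to 148557683, 58 exons, 7647 coding bases) carried between 95.8% and 99.1% of it. Without Ctrl replicate 1 the log2 fold change of the total was -0.02.

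Rptor encodes Raptor, the scaffold that brings substrates to mTOR complex 1. It had the highest log2 fold change of the 8 genes, with 9.79, 13.2 and 11.9 FPKM in Ctrl and 13.4, 16.1 and 11.4 FPKM in Gsk3sKO. Of the Gsk3sKO libraries, 2 lay above every Ctrl library and the third lay below 2 of them. The log2 fold change was 0.21 (SE 0.20, 95% interval -0.24 to 0.66, unadjusted limma p = 0.311, adjusted p = 0.873; 2-sided exact permutation p = 0.4), and it lay between 0.09 and 0.33 over all alternatives. Of its 12 transcripts, 10 are annotated as retained intron or nonsense-mediated decay. Such transcripts held 67.6% of the Rptor total in Ctrl replicate 1 and 47.6% in Gsk3sKO replicate 3, against 1.15% to 11.7% in the other 4 libraries. Rptor-201 (ENSMUST00000026671, chromosome 11, plus strand, 119603149 to 119899407, 34 exons, 4005 coding bases) was at 3.17, 12.2 and 11.8 FPKM in Ctrl and 12.9, 14.2 and 5.96 FPKM in Gsk3sKO, so the same libraries stood low in each group. Its log2 fold change was 0.36 (SE 0.55, limma adjusted p = 0.934) and was -0.19 without Ctrl replicate 1. Across the other 7 genes the transcripts of these types and processed transcripts made up at most 8.28% of a gene total.

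Rictor encodes the scaffold of mTOR complex 2, the complex that phosphorylates Akt on its hydrophobic motif. It has 1 listed transcript, Rictor-201 (ENSMUST00000061656, chromosome 15, plus strand, 6708383 to 6800401, 38 exons, 5124 coding bases), so its value does not depend on a division between transcripts. It was at 6.63, 10.7 and 12.5 FPKM in Ctrl and 10.2, 9.74 and 12.5 FPKM in Gsk3sKO. Ctrl replicate 1 was the lowest library and the other 5 overlapped. The log2 fold change was 0.15 (SE 0.24, 95% interval -0.41 to 0.71, limma adjusted p = 0.932; 2-sided exact permutation p = 0.8), and -0.09 without Ctrl replicate 1.

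In the order of mean gene totals over the 6 libraries, Pik3r1 (37.8 FPKM) was followed by Akt1 (32.0 FPKM), Pdpk1 (20.3 FPKM), Mtor (12.8 FPKM), Rptor (12.6 FPKM), Rictor (10.4 FPKM), Akt2 (10.1 FPKM) and Pik3ca (6.54 FPKM). FPKM is scaled to length, so these levels can be set side by side. Neighbours were compared by their log2 difference within each library. Mtor and Rptor (mean difference 0.03, SD 0.13), Rptor and Rictor (0.30, SD 0.34) and Rictor and Akt2 (0.02, SD 0.43) did not differ beyond the spread between libraries. The steps from Pik3r1 to Akt1 (0.24, SD 0.16), Akt1 to Pdpk1 (0.69, SD 0.34), Pdpk1 to Mtor (0.64, SD 0.42) and Akt2 to Pik3ca (0.63, SD 0.22) exceeded it, with the mean difference above its SD. Pik3r1 was above Akt1 in 5 of the 6 libraries, and the other steps named here held in all 6.

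Of the 62 transcripts of the 8 genes, 10 were at 0 in all libraries, 39 had a mean below 1 FPKM, and 13 were tested. In limma 0 of the 13 had an unadjusted p under 0.05, against 5.56% of the 21584 transcripts tested (1.81% higher and 3.75% lower in Gsk3sKO), and a linear model without moderated variances also called 0. No transcript in the table had an adjusted p under 0.05 (0.00%). The groups overlapped for each of the 13, where 11.2% of all tested transcripts did not overlap. The lowest unadjusted p was 0.0889, that of Akt1-208. Akt1-208 and Pik3ca-203 had a mean below 1 FPKM in Ctrl and passed the filter only through Gsk3sKO. Pik3r1-204 had a mean below 1 FPKM in Gsk3sKO and passed only through Ctrl. The contrasts of these transcripts are not support for a difference.

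**Figure D3:**
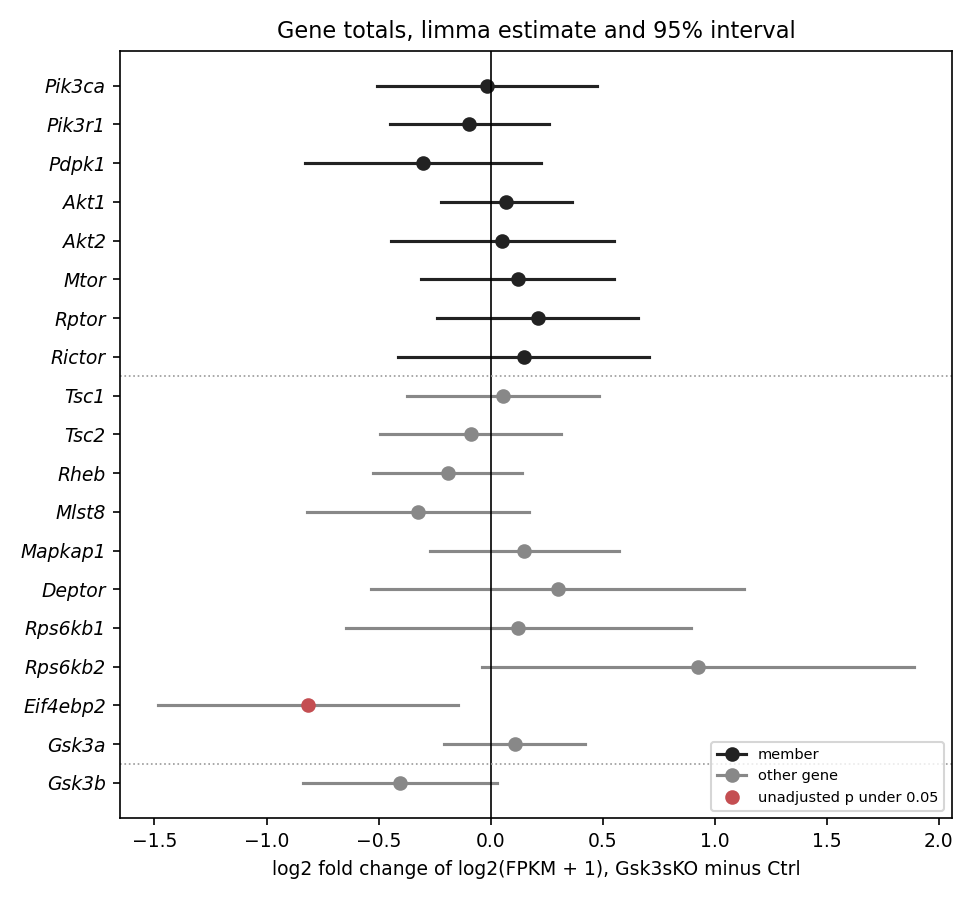
Log2 fold change of gene totals, Gsk3sKO minus Ctrl, on the scale of log2(FPKM + 1) (x axis), with the limma estimate as a point and its 95% interval as a line, for the 8 genes (black), other pathway genes (grey) and Gsk3b. All 8 intervals include 0, and the red point marks Eif4ebp2, the gene shown with an unadjusted p under 0.05.

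A further 48 genes of the pathway were followed for comparison, and 45 of them passed the filter on low values. In limma 1 of the 45, a share of 2.22%, had an unadjusted p under 0.05, and 0 had an adjusted p under 0.05. It was lower in Gsk3sKO, as were 5.20% of all tested gene totals, while 1.36% were higher. That imbalance depended on the scaling, with 669 lower and 175 higher calls over all gene totals as deposited and 502 lower and 307 higher with median ratio scaling. The groups did not overlap for 5 of the 45, a share of 11.1%, beside 12% of all tested gene totals. The median log2 fold change of the list was -0.06, as was that of all tested gene totals. The list median was -0.013 with median ratio scaling, and it ran from -0.13 without Gsk3sKO replicate 1 to -0.026 without Ctrl replicate 3. The gene called was Eif4ebp2, which encodes a repressor of cap-dependent translation that mTOR complex 1 phosphorylates. Eif4ebp2 read 4.79, 5.63 and 3.68 FPKM in the Ctrl libraries and fell to 3.10, 2.39 and 1.37 FPKM in the Gsk3sKO libraries, a log2 fold change of -0.82 (SE 0.29, 95% interval -1.48 to -0.15, unadjusted limma p = 0.0226, adjusted p = 0.692, 2-sided exact permutation p = 0.1). The call was lost when Ctrl replicate 1, Ctrl replicate 2 or Gsk3sKO replicate 3 was left out, with unadjusted limma p of 0.0525, 0.0865 and 0.0634, and across these fits and all other alternatives the adjusted limma p lay between 0.429 and 0.973.

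Among receptors and adaptors, 0 of 6 genes passed the test, and log2 fold changes lay between -0.21 and 0.09. Of 6 other PI3K subunits tested, 0 passed. Of 6 lipid and protein phosphatases, which oppose the pathway, 0 passed, and log2 fold changes lay between -0.29 and 0.09. In the TSC group 0 of 5 passed. Tsc1 and Tsc2, which form the complex that restrains mTOR complex 1, had log2 fold changes of 0.06 (SE 0.19) and -0.09 (SE 0.18), and Rheb, the GTPase they act on, had -0.19 (SE 0.14). The 4 Rag GTPases, which place mTOR complex 1 on the lysosome, lay between -0.14 and 0.15, with 0 passing.

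Of 6 other mTOR complex subunits tested, 0 passed. Mlst8, a subunit of both complexes, was lower in each Gsk3sKO library (4.90, 4.04 and 3.48 FPKM) than in any Ctrl library (5.21, 5.36 and 5.60 FPKM), with a log2 fold change of -0.32 (SE 0.22, limma adjusted p = 0.824). Mapkap1, which encodes the SIN1 subunit of mTOR complex 2, was at 0.15 (SE 0.18), and Deptor, an inhibitor of both complexes, at 0.30 (SE 0.36) on the log2 scale. Of the 11 substrates and outputs, 1 passed, Eif4ebp2 as given above. Rps6kb1 and Rps6kb2 encode the S6 kinases, which mTOR complex 1 activates. Their log2 fold changes were 0.12 (SE 0.34) for Rps6kb1 and 0.93 (SE 0.42, limma adjusted p = 0.767) for Rps6kb2. Rps6kb2 was at 1.94, 2.94 and 2.66 FPKM in Ctrl and 6.18, 2.48 and 10.7 FPKM in Gsk3sKO. At the approximate depths this was about 205, 357 and 130 reads in Ctrl and 303, 238 and 286 reads in Gsk3sKO. Gsk3sKO replicate 3, the highest in FPKM, thus had fewer Rps6kb2 reads than Ctrl replicate 2, at depths of about 30000000 and 31900000. Its higher FPKM did not rest on more reads. Gsk3a, the other GSK3 gene and an Akt substrate, averaged 44.0 ± 4.39 FPKM in the Ctrl libraries and 47.5 ± 3.38 FPKM in the Gsk3sKO libraries (SD, n = 3 each), with a log2 difference of 0.11 (SE 0.14, limma adjusted p = 0.914).

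**Figure D4:**
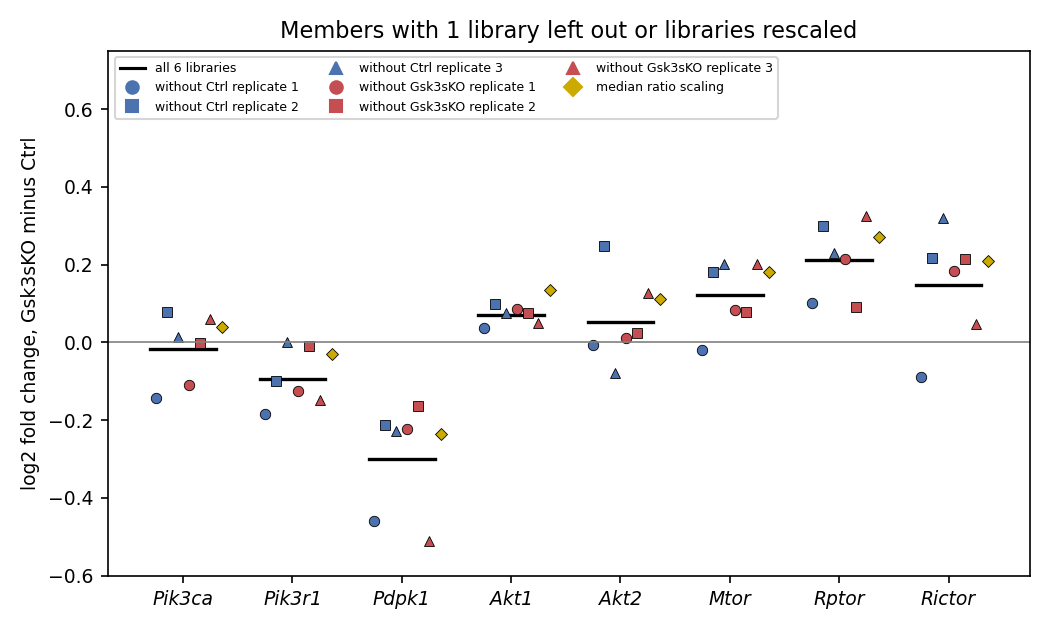
Log2 fold change of each of the 8 gene totals (y axis) with all 6 libraries (black line), with 1 library left out (blue for Ctrl, red for Gsk3sKO) and with libraries rescaled to the median ratio (yellow). Without Ctrl replicate 1 the values of Mtor, Rictor and Akt2 lie just below 0, and Pdpk1 stays below 0 in all of them.

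Averaged over the 8 genes, the centred log2(FPKM + 1) was -0.25, 0.14 and 0.07 in Ctrl and 0.03, -0.02 and 0.02 in Gsk3sKO, so the common profile was set mainly by the low Ctrl replicate 1. The gene totals with the profile nearest to it over the 6 libraries, by root mean square distance among 11388 candidates, were Lrpprc (0.04), Abhd2 (0.04) and Mfsd12 (0.04). The nearest of so many candidates lie close by selection, and shared regulation was not tested.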

How the data were processed

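RNA bound to ribosomes of mPFC D2 neurons was obtained by RiboTag immunoprecipitation and sequenced after a TruSeq Stranded preparation of its total RNA. The authors deposited FPKM per transcript and library. The submitters' processing notes list HISAT2 2.1.0, SAMtools 1.9, StringTie 1.3.4d and GRCm38, and the sources used here do not give their settings. StringTie estimates how reads are divided between overlapping transcripts, so the value of 1 transcript, and to a lesser degree a sum over transcripts of unequal length, depends on that division. The table also holds the authors' own folds, p-values and q-values, which were not used. All 6 libraries were used, and 0 FPKM columns were left out.

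Gene totals (FPKM summed by gene identifier) and transcripts with a mean of at least 1 FPKM over the 6 libraries were tested with limma 3.58.1 (lmFit, eBayes with trend) in R 4.3.3 on log2(FPKM + 1), Gsk3sKO against Ctrl without covariates, and p-values were adjusted by the Benjamini-Hochberg method over all tested features. A call means an unadjusted p under 0.05. On this scale the difference of a gene with low FPKM is understated. Exact permutation tests were 2-sided. The model code was run on simulated data with noise drawn independently for each feature and library. Deviations shared across a library, such as the low Ctrl replicate 1, were not simulated, so the run does not cover them. Transcripts were placed with GENCODE M21, in which all 62 were found, and leading transcripts are those with the highest mean FPKM. Alternatives were a pseudocount of 0.1, no filter, a minimum of 5 FPKM, median ratio scaling, no moderation, a replicate block and each library left out. Python 3.11.15, pandas 2.3.3, scipy 1.17.1 and matplotlib 3.10.9 were used.

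The genes, the pathway list and the marker lists were chosen with earlier results of these data known. The text names the 8 genes, their leading and called transcripts, Gsk3a, Gsk3b, called pathway genes, 7 further pathway genes named beforehand (Tsc1, Tsc2, Rheb, Mlst8, Mapkap1, Deptor and Rps6kb1) and the 3 nearest profiles. Pik3ca-203, Pik3r1-201, Pik3r1-204, Akt1-208, Akt2-201, the Gsk3b transcript ENSMUST00000114750, Drd2, Mog, Mag and Rps6kb2 were named after their values were seen. Protein sequences were not used here, and 2 other genes of the naming rule are not reported here.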

Additional observations from a re-analysis of the deposited data

How the results depend on the processing

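The 8 genes gave 0 calls under each alternative apart from 1 without Gsk3sKO replicate 3 (Pdpk1), so the count with 1 library left out ran from 0 to 1. Their transcripts gave 0 to 1, with 1 call each without Gsk3sKO replicate 2 (Akt1-208) and without Gsk3sKO replicate 3 (Pik3ca-203). The pathway list gave 1 call, 2 without a filter, 0 at a mean of at least 5 FPKM, 2 with median ratio scaling, 3 without moderation and 0 to 4 with 1 library left out (0 without Ctrl replicate 2 or Gsk3sKO replicate 3, 3 without Gsk3sKO replicate 1, 4 without Gsk3sKO replicate 2). The cause was not tested. Rps6kb2, with a log2 fold change of 0.93, was called with median ratio scaling (0.98) and without Gsk3sKO replicate 2 (1.39), and was not called under the other alternatives that tested it, among them 0.52 without Gsk3sKO replicate 3.

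Directions near 0 were not stable. Under median ratio scaling the median over all gene totals was -0.0034 in place of -0.06, Pik3ca turned to 0.040 and Pik3r1-201 to 0.015. With 1 library left out, log2 fold changes of gene totals ran from -0.14 to 0.077 for Pik3ca (above 0 without Ctrl replicate 2, Ctrl replicate 3 or Gsk3sKO replicate 3), -0.18 to 0.0013 for Pik3r1 (above 0 without Ctrl replicate 3), -0.51 to -0.16 for Pdpk1, 0.036 to 0.0997 for Akt1, 0.092 to 0.33 for Rptor, -0.080 to 0.25 for Akt2, -0.020 to 0.20 for Mtor and -0.090 to 0.32 for Rictor. Akt2, Mtor and Rictor were below 0 without Ctrl replicate 1, and Akt2 also without Ctrl replicate 3. The ranges for transcripts were -0.19 to 0.71 for Rptor-201, -0.22 to 0.10 for Akt1-201, 0.98 to 2.89 for Akt1-208, -0.13 to 0.17 for Pik3r1-202, -0.21 to 0.33 for Pik3r1-201, -0.090 to 0.32 for Rictor-201, 0.35 to 1.88 for Pik3ca-203, -1.64 to -0.27 for Pik3ca-201, -0.45 to -0.12 for Pdpk1-202, -1.54 to -0.65 for Pik3r1-204, 0.0036 to 0.22 for Mtor-202, -0.77 to 0.57 for Akt2-205 and -1.04 to 1.04 for Akt2-201. A pseudocount of 0.1 moved Akt1-208 to 3.75, Pik3ca-203 to 2.17, Pik3ca-201 to -2.18 and Pik3r1-204 to -2.19, each listed at 0 in at least 1 library.

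The labels do not say whether the replicate numbers pair the libraries. Deviations of same-numbered libraries correlated at -0.03, -0.01 and -0.08 across gene totals, and no library correlated best with its own number. With 3 libraries per group, weak correlations cannot show whether libraries were handled in pairs. A replicate block gave 0 calls for the 8 genes, 0 for their transcripts and 1 for the pathway list, and changed no call.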

Other observations

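Ratios between gene totals within a library do not depend on the scaling of that library, and the following were chosen after the values were seen. The ratio of Rptor to Rictor, the scaffolds of the separate mTOR complexes, was 1.48, 1.23 and 0.954 in Ctrl and 1.31, 1.65 and 0.908 in Gsk3sKO (2-sided exact permutation p = 0.8). The ratio of the regulatory Pik3r1 to the catalytic Pik3ca was 6.42, 5.08 and 6.49 in Ctrl and 5.10, 5.13 and 6.89 in Gsk3sKO (2-sided exact permutation p = 1). Both ratios overlapped between the groups.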
